A study of Mus musculus with 24 samples.

Results

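The comparison set mouse microglia kept for 22 h in 50 nM bafilomycin A1 (BafA1) against cells kept for the same time in the vehicle DMSO (0 nM BafA1). It used the 3 libraries titled BafA1 at 22 hours and the 3 titled DMSO at 22 hours, 6 of the 24 libraries of the series, and all 12648 of 56980 genes that passed a filter on low counts. The rest of the series holds the same pair of treatments after 1, 7 and 14 h. All cells were wild type (WT). They came from the cortex and hippocampus of newborn mice (P1-P3), were grown as mixed glia in flasks, and were detached by shaking before they were seeded and treated, so the cultures may also carry other glia. The labels give 3 biological replicates per group and do not say which litters or flasks these were. The p-values here therefore measure spread between these samples only, which may in part be technical. That spread was estimated within the groups of all 24 libraries together, not from the 6 libraries of 22 h alone.

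BafA1 inhibits the vacuolar proton pump (V-ATPase), which moves protons into lysosomes and endosomes and keeps them acidic. Microglia are the resident macrophages of the brain, and they depend on acidic lysosomes to digest what they engulf. When lysosomes fail or nutrients are short, the transcription factors of the MiT/TFE family (TFEB, TFE3, MITF) are known to enter the nucleus and to induce lysosomal genes through a DNA element called CLEAR.

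The 6 libraries held 1332093 to 4189077 counts. BafA1 libraries held 4189077, 2805274 and 3413778 counts in replicates 1 to 3, and the shallower DMSO libraries 3056773, 1332093 and 1984982. RNA integrity numbers lay between 9.7 and 9.9 in both groups. Mitochondrial transcripts took 4.46% to 4.75% of the counts in BafA1 libraries and 3.29% to 4.82% in DMSO libraries, and the 20 most abundant genes took 21.2% to 24.7% in BafA1 libraries and 16.1% to 20.8% in DMSO libraries. Levels below are CPM, a library's counts rescaled to a common total with TMM factors, which allow for differences in library composition. A 3′ tag library yields 1 tag per transcript, so CPM needs no correction for length. The label was checked on 8 defining microglia markers, and all 8 passed the filter. Their summed level was 1931, 1654 and 1402 CPM in BafA1 libraries and 6367, 5716 and 4267 CPM in DMSO libraries, so both groups carried them and the BafA1 libraries less.

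At 22 h, 5009 genes (39.6% of those tested) were called at a Benjamini-Hochberg adjusted p under 0.05 in edgeR's quasi-likelihood test, 2262 higher with BafA1 (17.9%) and 2747 lower (21.7%). Beyond a change of 2-fold, 964 called genes were higher (7.62%) and 2094 were lower (16.6%). Beyond 4-fold, 176 were higher and 1045 lower. The 3 BafA1 values lay all above or all below the 3 values of DMSO for 6118 genes (48.4%), and 4691 of these were also called. Within each replicate pair the called genes kept their direction in 4971, 4965 and 4990 of 5009 cases. That count is a description only, because calling these genes on the same libraries largely fixed it in advance. The median log2 change over all genes tested was -0.06. Scaling by library totals alone shifted that median to -0.23, and 30.9% of its 4992 calls were higher, against 45.2% of the calls under TMM. All log2 changes below are BafA1 over DMSO with their standard error (SE).

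**Figure D1:**
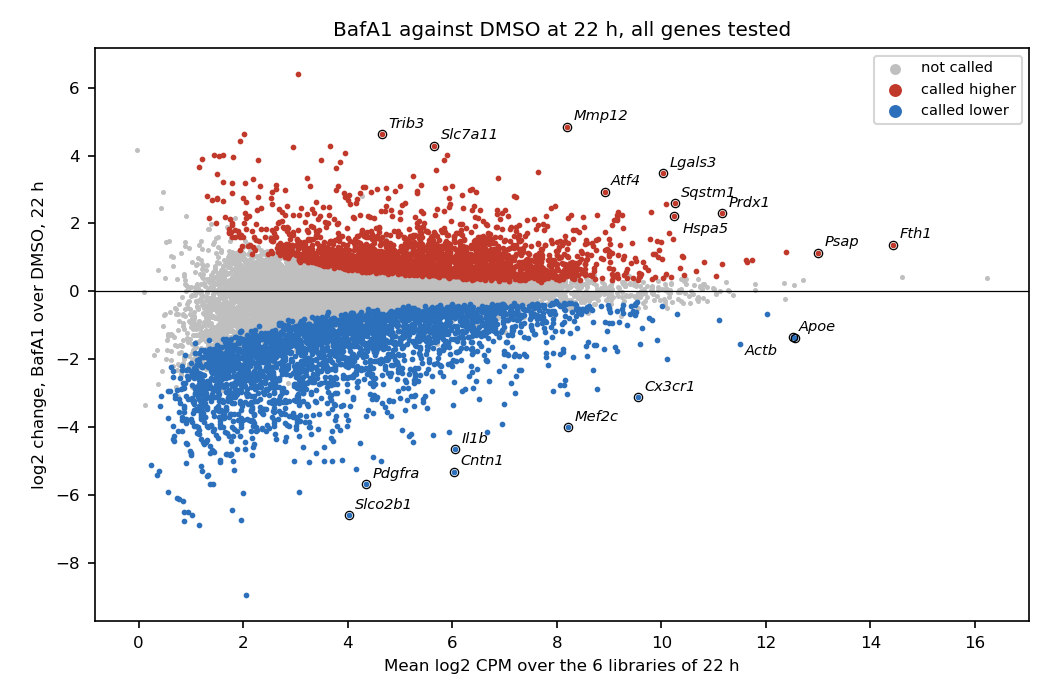
Each point is 1 of the 12648 genes tested, with its mean log2 CPM over the 6 libraries of 22 h on the x axis and its log2 change (BafA1 over DMSO) on the y axis. Red points were called higher and blue points lower. Abundant genes such as Fth1, Psap, Actb and Apoe moved by 1.14 to 1.38 on the log2 scale in 1 direction or the other, and 1045 called genes fell beyond 4-fold, against 176 that rose beyond it.

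The genes ranked here were called, did not overlap, had a mean of 3 or more log2 CPM and bore a standard symbol. Names with a Gm number, Rik, or a clone or accession code were left out. The largest rise in this ranking was that of Mmp12, the macrophage elastase. Mmp12 stood at 1664, 1731 and 1310 CPM in the BafA1 libraries and at 51.6, 63.1 and 49.7 CPM in the DMSO libraries. All 3 BafA1 values lay far above all DMSO values, a 28.9-fold difference (log2 change 4.85, SE 0.38, edgeR adjusted p = 3.95e-09). Lgals3, which encodes the glycan-binding protein galectin-3, was the most abundant of the 12 largest rises, with 3636, 3767 and 3208 CPM in BafA1 libraries and 303, 382 and 262 CPM in DMSO libraries (11.2-fold, log2 change 3.49, SE 0.25). Mcoln2, an endolysosomal cation channel, had 64.4, 57.3 and 50.3 CPM with BafA1 and 1.92, 7.01 and 2.66 CPM with DMSO. Fabp4, a carrier of fatty acids, had 265, 222 and 210 CPM with BafA1 and 13.8, 14.8 and 14.6 CPM with DMSO, so neither gene overlapped between the groups. Their folds were 17.1 and 16.2, with edgeR adjusted p-values of 6.86e-09 and 9.19e-12. Stx3, a membrane fusion protein of the syntaxin family, rose 11.8-fold to 180.1, 182 and 157 CPM in BafA1 libraries, against 15.4, 16.4 and 12.4 CPM in DMSO libraries. The rest of the 12 were Trib3, Slc7a11 and Ddit3 of the integrated stress response, the prolyl hydroxylase subunit P4ha2, the TNF receptor family member Tnfrsf26, Plcxd2 and Ifrd1, with log2 changes of 3.51 to 4.62.

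Of the 12 largest falls, Pdgfra and Olig1 belong to the oligodendrocyte marker list and none of the others to a cell type marker list. Slco2b1, an organic anion transporter, fell most, with 0.513, 3.61 and 0.606 CPM in BafA1 libraries and 146, 167 and 95.3 CPM in DMSO libraries (96.0-fold lower, log2 change -6.58, SE 0.41, edgeR adjusted p = 8.46e-12). Grm5, a metabotropic glutamate receptor, had 0.513, 1.20 and 0.606 CPM with BafA1 and 56.0, 38.2 and 44.4 CPM with DMSO. Cntn1, a neural cell adhesion protein and the most abundant of the 12 in DMSO, had 10.3, 8.42 and 11.2 CPM with BafA1 and 405, 445 and 355 CPM with DMSO. The BafA1 values of these genes sat 60.5-fold (Grm5) and 39.7-fold (Cntn1) below those of DMSO, with no overlap. Pdgfra, a growth factor receptor of oligodendrocyte progenitors, fell to 2.05, 2.40 and 3.03 CPM in BafA1 libraries, against 108, 135 and 146 CPM in DMSO libraries. Olig1, a transcription factor of the same lineage, fell to 2.82, 0.802 and 4.24 CPM in BafA1 libraries, against 112, 86.5 and 114 CPM in DMSO libraries. The others were Nell2, Atp1b2, Klhl13, the microRNA host transcript Mir9-3hg, the adhesion protein Chl1, the proteoglycan Cspg5 and the neurexin ligand Nxph1, with log2 changes of -5.04 to -4.78. In bulk RNA, fewer cells of a type and less RNA per cell cannot be told apart, and markers of other cell types are given further on.

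**Figure D2:**
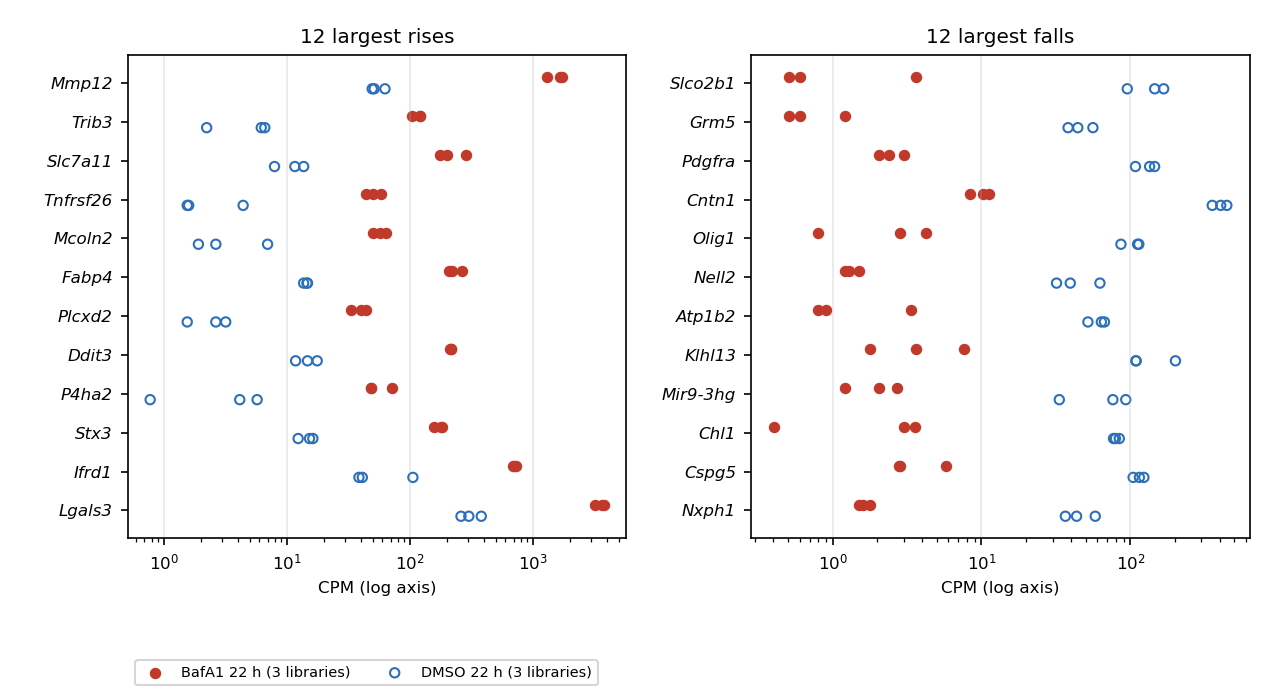
Points are the CPM of single libraries on a log axis for the 12 largest rises (left) and the 12 largest falls (right), filled red for BafA1 and open blue for DMSO at 22 h. In every row the 3 BafA1 points stand apart from the 3 DMSO points, as the choice of genes required. Lgals3 reached 3208 to 3767 CPM with BafA1, while Slco2b1 lay between 0.513 and 3.61 CPM.

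By absolute level, the largest gain was that of Fth1, the heavy chain of the iron store ferritin, which reached 36570, 40950 and 31730 CPM in BafA1 libraries, against 11810, 18050 and 12130 CPM in DMSO libraries (2.60-fold, edgeR adjusted p = 0.000113). Psap, which encodes the saposins, cofactors of sphingolipid breakdown, had 12440, 14020 and 10330 CPM with BafA1 and 5097, 6914 and 4709 CPM with DMSO. The protease gene Ctsd (cathepsin D), the peroxidase gene Prdx1 and the autophagy receptor gene Sqstm1 completed the 6 largest gains together with Lgals3. The largest loss was that of Actb, cytoplasmic actin, which fell to 3846, 3809 and 3521 CPM in BafA1 libraries, against 11030, 9792 and 8306 CPM in DMSO libraries (2.61-fold lower, edgeR adjusted p = 4.73e-09). Apoe, the lipid carrier, fell to 4261, 3783 and 2983 CPM in BafA1 libraries, against 9249, 9774 and 8902 CPM in DMSO libraries. Tmsb4x, which binds actin monomers, and Lpl, the lipoprotein lipase, fell, with log2 changes of -1.55 and -2.0, and Lyz2, lysozyme, with one of -0.66. Fth1, Actb and Tmsb4x have processed copies in the genome, so their counts carry that uncertainty. The naming rule took only genes without overlap, so these 12 have none by choice.

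Genes of the V-ATPase, the target of the drug, rose nearly as a whole. Of 18 subunit genes tested, 16 were called higher and 1 lower, against 17.9% and 21.7% of all genes, and the median log2 change was 1.05 against -0.06 over all genes. For every list below, these shares of all genes are the values to set its counts against. This list and those below were chosen with earlier results of these data known, so such comparisons and ranks are descriptions only. Summed over the 18, the level was 10300, 10240 and 9419 CPM in BafA1 libraries and 4762, 4592 and 3589 CPM in DMSO libraries. Atp6v1a, the catalytic subunit that splits ATP, had 2281, 2110 and 1797 CPM with BafA1 and 650.4, 682 and 538 CPM with DMSO (3.31-fold, log2 change 1.73, SE 0.14, edgeR adjusted p = 3.53e-10). Atp6v1c1, a stalk subunit that links both sectors of the pump, had 570.2, 595 and 494 CPM with BafA1 and 106, 111 and 83.8 CPM with DMSO (5.53-fold). Atp6v0d2, the d subunit isoform of the membrane sector known from osteoclasts and macrophages, changed most, from a low level: 121, 136 and 100 CPM in BafA1 libraries and 9.29, 14.0 and 11.5 CPM in DMSO libraries (10.5-fold). The BafA1 and DMSO values did not overlap for 17 of the 18 genes, against 48.4% of all genes tested. The member called lower was Atp6v0a1, a membrane-sector isoform enriched in neurons, at a log2 change of -0.43, and its call held when BafA1 replicate 2 was left out but not when any other single library was. Atp6v0a2 was not called (0.14). These members, like the others named below that are not among the 4 called members with the largest change of their list, were chosen after their values were seen.

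Lysosomal hydrolases and membrane proteins were called higher in 24 of 49 cases (49.0%, against 17.9% of all genes) and lower in 8 (16.3%, against 21.7%), with a median log2 change of 0.49. The highest rise was that of Gla, alpha-galactosidase A, at 323, 304 and 273 CPM in BafA1 libraries and 73.7, 54.5 and 40.4 CPM in DMSO libraries (5.29-fold, log2 change 2.40, SE 0.18, edgeR adjusted p = 3.95e-11). Naglu, which degrades heparan sulfate, rose 3.44-fold, and the lysosomal cholesterol transporter gene Npc1 rose by 1.37 on the log2 scale. Among the 8 that fell were Ctsc, which activates serine proteases, at 131, 104 and 108 CPM with BafA1 and 569, 407 and 333 CPM with DMSO (3.83-fold lower), and Ctsf, at 7.70, 7.21 and 7.57 CPM with BafA1 and 26.3, 22.6 and 20.8 CPM with DMSO. Ctsh, Ids, Arsb, Man2b1, Pla2g15 and Ppt1 made up the rest, with log2 changes of -1.36 to -0.57. Of the cathepsins, B, D, Z and A were called higher and C, F and H lower, with Ctsl and Ctss not called at -0.22 and -0.23.

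The promoter window of Gla is shown because it is that of the largest called riser among V-ATPase and lysosomal genes whose window holds the CLEAR-type core GTCACGTG. The RefSeq window runs from 250 bases before to 50 after the gene's start, at chrX:134600956-134601255 of GRCm38.p6 on the minus strand, and capitals mark the match, which starts at base 55 of the window.
Gla: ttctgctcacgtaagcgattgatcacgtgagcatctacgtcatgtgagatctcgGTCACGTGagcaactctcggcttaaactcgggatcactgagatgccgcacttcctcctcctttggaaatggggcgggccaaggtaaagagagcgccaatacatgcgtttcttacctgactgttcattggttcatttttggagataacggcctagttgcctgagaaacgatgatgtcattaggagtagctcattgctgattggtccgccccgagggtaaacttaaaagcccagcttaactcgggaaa
Both strands were searched for the 8 letters. They were found in 12 of the 52 V-ATPase and lysosomal genes with a window (23.1%), in 8 of the 30 among them that were called higher (26.7%), in 5.07% of the 9158 tested genes with a window and in 2.55% of all 27025 genes of the promoter table. A match describes these letters only and is no measured binding site.

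Autophagy genes were called higher in 16 of 36 cases (44.4%, against 17.9% of all genes) and lower in 1 (2.78%, against 21.7%). Their median log2 change was 0.50. Sqstm1, the receptor p62 that brings ubiquitinated cargo to autophagosomes, had 3052, 3188 and 2839 CPM in BafA1 libraries and 492, 560 and 452 CPM in DMSO libraries (6.04-fold, log2 change 2.60, SE 0.13, edgeR adjusted p = 5.36e-14). Optn, another cargo receptor, had 40.8, 46.1 and 33.9 CPM with BafA1 and 4.48, 7.79 and 5.32 CPM with DMSO (7.18-fold). The ubiquitin-like conjugation gene Atg12 and the tethering gene Tecpr1 rose 3.06-fold and 3.36-fold. Among the LC3 family, Gabarapl1 (1.49), Gabarapl2 (0.63) and Gabarap (0.46) were called higher, while Map1lc3a (0.35) and Map1lc3b (0.20) were not called. Map1lc3a was called with the replicate block (edgeR adjusted p = 0.0401). The kinase gene Ulk2 was called lower (-0.77), a call lost without DMSO replicate 1.

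Among MiT/TFE factors and the nutrient-sensing machinery of mTORC1 on the lysosome, 12 of 24 genes were called higher and 4 lower (median log2 change 0.46). The risers included Rragd, a Rag GTPase, with 94.2, 88.2 and 68.8 CPM in BafA1 libraries and 19.9, 13.2 and 20.8 CPM in DMSO libraries (4.53-fold), and Fnip2, a partner of folliculin, with 312, 296 and 218 CPM in BafA1 libraries and 66.0, 47.5 and 52.3 CPM in DMSO libraries (4.91-fold). Gpnmb, a membrane glycoprotein known as a target of these factors, reached 2757, 2669 and 2625 CPM with BafA1, against 432, 598 and 335 CPM with DMSO (5.92-fold, edgeR adjusted p = 2.93e-07). None of the transcripts of the factors themselves was called higher: Tfe3 was called lower (-0.76), and Mitf (-0.33), Tfeb (0.07) and Tfec (0.22) were not called, although Mitf was called lower with the replicate block (edgeR adjusted p = 0.025). The sestrin genes went opposite ways, with Sesn1 at 9.49, 7.62 and 5.15 CPM in BafA1 libraries and 75.6, 60.8 and 65.6 CPM in DMSO libraries (9.01-fold lower), and Sesn2 at a log2 change of 1.40. Castor2 (-1.69) and Lamtor4 (-0.47) were the remaining members called lower.

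**Figure D3:**
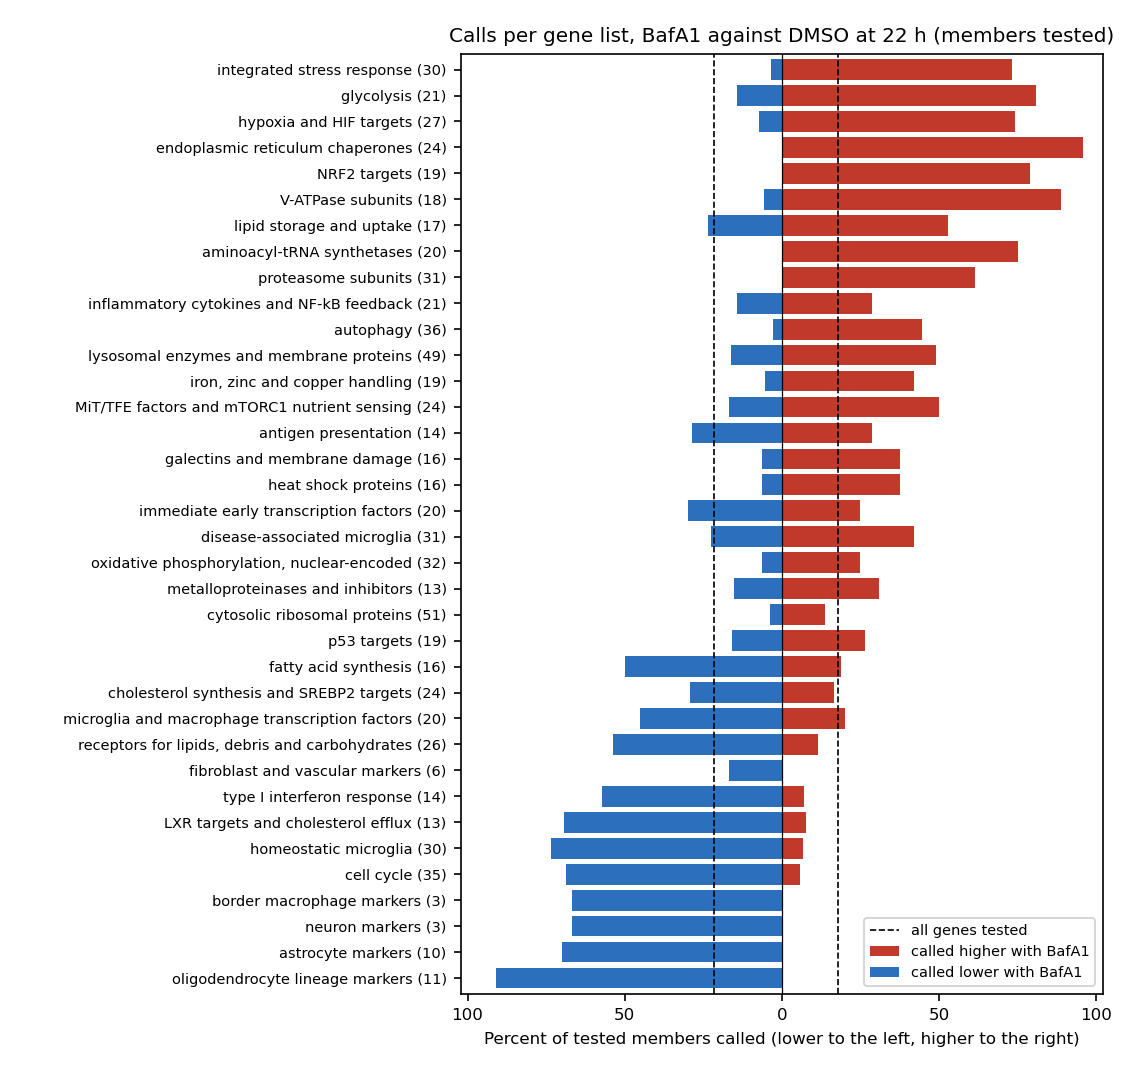
For each of 36 gene lists, bars give the percent of tested members called higher (red, to the right) and called lower (blue, to the left) with BafA1 at 22 h, with the number tested in brackets and lists ordered by their median log2 change. Dashed lines mark all genes tested, 17.9% higher and 21.7% lower. The lists were chosen with earlier results of these data known. Stress, glycolysis and V-ATPase lists stand at the top, and homeostatic microglia, cell cycle and neural marker lists at the bottom.

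The integrated stress response, in which phosphorylated eIF2α favours translation of the transcription factor ATF4, had 22 of 30 members called higher and 1 lower, with a median log2 change of 1.5. Atf4 itself rose by 2.94 on the log2 scale. Trib3, a pseudokinase induced by ATF4 and CHOP, had 122, 122 and 104 CPM in BafA1 libraries and 2.24, 6.23 and 6.65 CPM in DMSO libraries (24.7-fold, log2 change 4.62, SE 0.42, edgeR adjusted p = 3.91e-09). Slc7a11, the cystine importer subunit xCT, had 289.5, 177 and 200.3 CPM in BafA1 libraries and 13.8, 11.7 and 7.98 CPM in DMSO libraries (19.7-fold, SE of the log2 change 0.25). Ddit3, which encodes CHOP, had 211, 215 and 216 CPM with BafA1 and 11.8, 14.8 and 17.7 CPM with DMSO, so its BafA1 values lay close together and its DMSO values far below. Chac1, which degrades glutathione, was scarce in both groups but also apart, at 12.8, 10.0 and 9.70 CPM with BafA1 and 0.961, 0.779 and 1.33 CPM with DMSO (9.97-fold). The member called lower was Vldlr, a lipoprotein receptor (-1.16); with library totals alone, 2 members were called lower. Psat1, Psph, Cth and Aldh18a1 of amino acid synthesis and the amino acid carriers Slc1a5 and Slc7a5 were not called, while Asns, Phgdh and Shmt2 were called higher by 1.06 to 2.17.

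The promoter window of Slc7a11 is shown because it is that of the largest called riser of this list whose window holds the CARE-type sequence TTGCATCA, to which ATF4 dimers are known to bind. It lies at chr3:50443564-50443863 of GRCm38.p6 on the minus strand, and capitals mark 2 matches, starting at bases 185 (reverse strand) and 204.
Slc7a11: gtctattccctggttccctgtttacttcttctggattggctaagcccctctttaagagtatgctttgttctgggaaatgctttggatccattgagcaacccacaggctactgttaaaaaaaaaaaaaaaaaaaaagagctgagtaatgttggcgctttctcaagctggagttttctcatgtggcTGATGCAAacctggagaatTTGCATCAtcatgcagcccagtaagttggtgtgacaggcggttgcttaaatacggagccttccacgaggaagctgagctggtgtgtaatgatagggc
The 8 letters, on either strand, were found in 6 of the 25 list members with a window (24%), in 5 of the 20 called higher (25%), in 0.743% of tested genes with a window and in 1.03% of all genes of the table. As for Gla, the match is a description of the window.

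Cytosolic aminoacyl-tRNA synthetases, which charge tRNAs and are known ATF4 targets in part, were called higher in 15 of 20 cases, with a median log2 change of 0.91. Sars had 355, 468 and 358 CPM in BafA1 libraries and 87.1, 80.2 and 103 CPM in DMSO libraries (4.34-fold, edgeR adjusted p = 3.97e-10), and Aars, Cars and Eprs rose 3.38-fold, 3.21-fold and 2.55-fold. Hars, Farsb, Qars, Vars and Kars were not called, at log2 changes of -0.42 (Qars) to 0.56 (Hars). Hars was called with the replicate block (edgeR adjusted p = 0.0457).

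Endoplasmic reticulum chaperones had the highest share called higher of the 36 lists: 23 of 24 were called higher, with a median log2 change of 1.26. Hspa5, the chaperone BiP, had 2485, 2830 and 2491 CPM in BafA1 libraries and 522, 557 and 601 CPM in DMSO libraries (4.65-fold, log2 change 2.22, SE 0.12, edgeR adjusted p = 1.23e-13). Dnajb9, its cochaperone ERdj4, had 181, 162 and 172 CPM with BafA1 and 36.2, 28.0 and 28.4 CPM with DMSO (5.48-fold). Sdf2l1 and Creld2, 2 further induced folding factors, rose 4.42-fold and 3.09-fold. None of the 24 overlapped between the groups, against 48.4% of all genes without overlap. Dnajb11 was not called (0.48) but was with the replicate block (edgeR adjusted p = 0.0442). The summed level was 8438, 8887 and 7931 CPM in BafA1 libraries and 3475, 3365 and 3019 CPM in DMSO libraries.

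Targets of NRF2, the transcription factor of the antioxidant response, were called higher in 15 of 19 cases (median log2 change 1.07). Prdx1, a peroxiredoxin, had 5768, 4811 and 4843 CPM in BafA1 libraries and 1105, 1110 and 883 CPM in DMSO libraries (4.98-fold, log2 change 2.32, SE 0.14, edgeR adjusted p = 8.29e-13). Srxn1, sulfiredoxin, which restores oxidised peroxiredoxins, had 294, 254 and 235 CPM with BafA1 and 47.4, 60.0 and 44.4 CPM with DMSO (5.23-fold). Gstm1, a glutathione transferase of a family with similar copies, rose 3.61-fold, and both subunit genes of glutamate-cysteine ligase rose, Gclm by 1.5 and Gclc by 1.35 on the log2 scale. The pentose phosphate genes G6pdx (-0.43) and Tkt (0.14), the malic enzyme gene Me1 (0.11) and the NRF2 inhibitor Keap1 (0.07) were not called, although G6pdx was called lower with the replicate block (edgeR adjusted p = 0.0225). Nqo1 and Gsta3 did not pass the count filter.

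The promoter window of Srxn1 is shown by the same rule for the ARE-type core TGACNNNGC, the element that NRF2 dimers are known to bind. It lies at chr2:152105274-152105573 of GRCm38.p6 on the plus strand, and capitals mark the match, on the reverse strand from base 279.
Srxn1: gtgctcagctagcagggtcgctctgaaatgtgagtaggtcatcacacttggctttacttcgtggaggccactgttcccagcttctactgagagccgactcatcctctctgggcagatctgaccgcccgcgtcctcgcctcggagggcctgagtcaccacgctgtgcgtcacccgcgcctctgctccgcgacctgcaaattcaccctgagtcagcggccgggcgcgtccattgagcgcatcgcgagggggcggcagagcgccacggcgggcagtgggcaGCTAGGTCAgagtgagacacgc
The core was present in 8 of the 15 list members with a window (53.3%) and in 6 of the 11 called higher (54.5%), but it is short and was also present in 17.1% of tested genes with a window and in 14% of all genes of the table.

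Proteasome subunits, the protease complex for ubiquitinated proteins, were called higher in 19 of 31 cases (median log2 change 0.55). Psmd8 had 1211, 1257 and 1076 CPM in BafA1 libraries and 211, 305 and 309.6 CPM in DMSO libraries (4.31-fold), Psmb6 rose 3.12-fold, and Psmb5 and Psmd13 rose 2.23-fold and 1.98-fold. Heat shock proteins were called higher in 6 of 16 cases (37.5%, against 17.9% of all genes) and lower in 1 (6.25%, against 21.7%). With library totals alone, 3 were called higher. The mitochondrial chaperones led: Hspa9 had 689.8, 677 and 666 CPM with BafA1 and 149, 111 and 160.1 CPM with DMSO (4.80-fold), and Hspd1 and Hspe1 each rose 1.79-fold. The cytosolic chaperone Hspa8 fell to 553, 618 and 597 CPM in BafA1 libraries, against 847, 1013 and 849 CPM in DMSO libraries. Hspb1, Dnajb1 and Hsph1 of the cytosolic heat shock response were not called, at -0.28 to 0.33.

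Glycolysis genes were called higher in 17 of 21 cases and lower in 3, with a median log2 change of 1.45 and a summed level of 11300, 10950 and 9444 CPM in BafA1 libraries against 3670, 4273 and 3382 CPM in DMSO libraries. Pgk1, phosphoglycerate kinase, had 1423, 1294 and 1237 CPM in BafA1 libraries and 266, 318 and 248 CPM in DMSO libraries (4.76-fold, log2 change 2.25, SE 0.13, edgeR adjusted p = 3.64e-13). Pfkl, the liver isoform of phosphofructokinase, and Slc16a3, a lactate exporter, rose 5.95-fold and 5.26-fold. The 3 that fell were the brain aldolase Aldoc, at 13.3, 16.8 and 13.3 CPM with BafA1 and 58.0, 78.7 and 74.1 CPM with DMSO, Ldhb (-1.88) and the muscle phosphofructokinase Pfkm (-1.79). Aldoc is also among the astrocyte markers given further on. Hk1 was not called (0.23), whereas Hk2 (1.65) and Hk3 (2.01) rose.

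Known targets of hypoxia-inducible factors were called higher in 20 of 27 cases and lower in 2, or in 4 with library totals alone (median log2 change 1.26). P4ha2, a collagen prolyl hydroxylase, had 72.1, 48.9 and 48.5 CPM in BafA1 libraries and 4.16, 0.779 and 5.76 CPM in DMSO libraries (14.2-fold). Bnip3, a mitophagy receptor, had 267, 202 and 229.7 CPM with BafA1 and 33.0, 31.1 and 23.1 CPM with DMSO (8.01-fold, edgeR adjusted p = 8.46e-12). Ankrd37 was called too, but the DMSO libraries held 3 of its counts in all, so no fold is given. Pfkfb4 (-2.27) and the transferrin gene Trf (-1.83) fell, and Hif1a (-0.20), Epas1, Ddit4, Mxi1 and Slc2a3 were not called. Among iron, zinc and copper genes, 8 of 19 were called higher and 1 lower, or 2 lower with the replicate block. Slc11a2, the carrier DMT1 that moves iron out of endosomes, had 207, 188 and 178 CPM in BafA1 libraries and 46.1, 50.6 and 31.9 CPM in DMSO libraries. Tfrc, the transferrin receptor, had 201, 185 and 212 CPM with BafA1 and 47.7, 52.2 and 53.2 CPM with DMSO, again without overlap. The zinc exporter Slc30a1 and heme oxygenase Hmox1 each rose by 1.43 on the log2 scale, and the metallothionein Mt1 was called lower (-0.52).

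Lipid storage and uptake genes were called higher in 9 of 17 cases and lower in 4 (median log2 change 1.02). Besides Fabp4, the lipid droplet regulator Hilpda had 212, 168 and 173 CPM in BafA1 libraries and 21.8, 26.5 and 17.3 CPM in DMSO libraries (8.59-fold, edgeR adjusted p = 5.83e-10). Fabp5, another fatty acid carrier, had 2147, 2090 and 1802 CPM with BafA1 and 428, 438 and 318 CPM with DMSO (5.10-fold), and Mgll, monoacylglycerol lipase, rose 5.12-fold. The droplet coats Plin2 (1.53) and Plin3 (1.91) rose as well. Lpl fell to 656, 516 and 486 CPM in BafA1 libraries, against 2315, 2273 and 2030 CPM in DMSO libraries, and the scavenger receptor Msr1 (-1.53), Vldlr (-1.16) and the lipase Lipe (-1.01) were the others that fell.

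Targets of the sterol-sensing LXR receptors, many of which serve cholesterol export, were called lower in 9 of 13 cases and higher in 1 (median log2 change -1.18). Abca9, a transporter, had 3.85, 3.61 and 2.12 CPM in BafA1 libraries and 71.1, 55.3 and 36.8 CPM in DMSO libraries (16.9-fold lower, edgeR adjusted p = 2.14e-08). Apoc2 and Pltp, which act on lipoproteins, fell 3.40-fold and 3.08-fold, and the cholesterol exporters Abca1 and Abcg1 fell with log2 changes of -1.23 and -1.18. The gene called higher encodes the receptor Nr1h2 (1.04), a call lost without DMSO replicate 2 or without BafA1 replicate 1.

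Cholesterol synthesis genes were called near the shares of all genes at 22 h. Of 24, 4 were called higher (16.7%, against 17.9% of all genes) and 7 lower (29.2%, against 21.7%), with a median log2 change of -0.24, and 2 were called higher without DMSO replicate 2 or with library totals alone. Insig1, which retains SREBP in the endoplasmic reticulum, had 63.9, 58.5 and 62.1 CPM in BafA1 libraries and 25.3, 24.1 and 21.7 CPM in DMSO libraries (2.59-fold, edgeR adjusted p = 3.03e-07). Mvd of the mevalonate pathway rose 2.69-fold, whereas its neighbours in that pathway Mvk and Pmvk fell, with log2 changes of -1.25 and -1.05. Dhcr7, an enzyme of the last steps to cholesterol, had 8.21, 9.22 and 6.67 CPM with BafA1 and 14.1, 28.8 and 16 CPM with DMSO. The SRE-type sequence TCACNCCAC was not in the promoter windows of the 3 called risers that had a window, so none is shown. In fatty acid synthesis, 8 of 16 genes were called lower and 3 higher. Elovl6, a chain-elongating enzyme, had 4.36, 1.60 and 6.97 CPM with BafA1 and 14.7, 14.0 and 26.2 CPM with DMSO. The desaturase Scd2 had 41.8, 36.1 and 54.2 CPM with BafA1 and 109.5, 109 and 121 CPM with DMSO. Fads2 was also called lower, although its groups overlapped, with 13.9, 11.6 and 25.1 CPM under BafA1 and 41.3, 24.1 and 37.2 CPM under DMSO. The number lower was 5 without DMSO replicate 3, the number higher was 1 without BafA1 replicate 1, and Scd1 (-0.92, edgeR adjusted p = 0.0444) kept its call only when BafA1 replicate 3 was the library left out.

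Genes of homeostatic microglia, the set that marks resting cells in the brain, were called lower in 22 of 30 cases and higher in 2 (median log2 change -1.53). The purinergic and chemokine receptors fell far. Cx3cr1, the fractalkine receptor, had 321, 234 and 217 CPM in BafA1 libraries and 2633, 2281 and 1800 CPM in DMSO libraries (8.68-fold lower, log2 change -3.12, SE 0.21, edgeR adjusted p = 1.27e-11). Gpr34, a lysophosphatidylserine receptor, had 4.62, 3.61 and 2.73 CPM with BafA1 and 94.5, 99.7 and 54.5 CPM with DMSO (22.0-fold lower). P2ry12, the ADP receptor that guides microglial processes, had 1.54, 2.0 and 0.303 CPM with BafA1 and 22.4, 35.0 and 20.8 CPM with DMSO. Tmem119, a microglia marker, had 1.03, 0.802 and 1.21 CPM with BafA1 and 16.6, 17.9 and 14.6 CPM with DMSO, so both groups were low and did not overlap. The complement genes C1qa, C1qb and C1qc had log2 changes of -1.92 to -1.85, and the growth factor receptor Csf1r had one of -1.71. Trem2 (-0.06) and Tyrobp (-0.23) were not called. Rhob and Tgfbr1 were called higher (0.49 and 0.43), but 1 or both of these calls were lost without DMSO replicate 1, DMSO replicate 3 or BafA1 replicate 1, and with library totals alone none remained.

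Transcription factors of microglia and macrophages were called lower in 9 of 20 cases and higher in 4. Mef2c, a factor of the adult microglia programme, had 94.2, 75.0 and 57.6 CPM in BafA1 libraries and 1073, 1507 and 1041 CPM in DMSO libraries (15.9-fold lower, log2 change -3.99, SE 0.31, edgeR adjusted p = 9.87e-10). Maf, Sall1 and Irf8 fell with log2 changes of -1.88, -1.08 and -1.0. The paired repressors Bhlhe40 and Bhlhe41 went the other way. Bhlhe40 had 101, 87.4 and 94.8 CPM with BafA1 and 18.6, 18.7 and 19.5 CPM with DMSO, and Bhlhe41 had 528, 491 and 425 CPM with BafA1 and 104, 122 and 83.8 CPM with DMSO. Spi1, the lineage factor PU.1, was not called (-0.11), nor were Runx1 (0.05) and Zeb2 (-0.03).

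Receptors for lipids, debris and carbohydrates were called lower in 14 of 26 cases and higher in 3. The lectin Clec4e (Mincle) had 407, 323 and 378 CPM in BafA1 libraries and 26.9, 48.3 and 38.6 CPM in DMSO libraries (10.0-fold, edgeR adjusted p = 5.77e-11). Its neighbours of the Clec4a group fell, with Clec4a3 at 5.13, 0.802 and 3.94 CPM with BafA1 and 65.3, 63.9 and 38.6 CPM with DMSO and Clec4a2 at 12.8, 13.6 and 12.4 CPM with BafA1 and 98.3, 112 and 71.4 CPM with DMSO. Clec4a1 fell 12.6-fold, and because these genes resemble each other, their shares of the reads are uncertain. The phagocytic receptors Mertk and Axl fell with log2 changes of -1.27 and -1.44, and Clec4d (1.34) and Colec12 (0.91) were the others called higher.

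The disease-associated set, described in microglia of neurodegeneration models, had 13 of 31 genes called higher (41.9%, against 17.9% of all genes) and 7 lower (22.6%, against 21.7%), or 11 lower with library totals alone, and the median log2 change was 0.17. Lgals3, Gpnmb, Fabp5, the actin-capping gene Capg (1.95) and the lysosomal members Ctsd, Ctsb, Ctsz, Cd63 and Cd68 rose. Apoe, Lpl, Axl (-1.44), Ank (-1.31), Cd52 (-1.09), Lyz2 and the chemokine Ccl6 fell, Ccl6 to 67.5, 63.7 and 50.6 CPM in BafA1 libraries, against 341, 333 and 163 CPM in DMSO libraries. Trem2 (-0.06), Clec7a (0.17), Itgax (-0.04) and Cst7 (0.64) were not called, although Cst7 was called higher with the replicate block (edgeR adjusted p = 0.000244). Several of these genes are shared with the lysosomal and lipid lists above.

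Inflammatory genes were called in both directions, with 6 of 21 called higher (28.6%, against 17.9% of all genes) and 3 lower (14.3%, against 21.7%). Their median log2 change was 0.51, against -0.06 over all genes. With the replicate block, 9 were called higher and 3 lower. Il1b, the cytokine interleukin-1β, had 19.2, 9.62 and 11.2 CPM in BafA1 libraries and 505, 283 and 245 CPM in DMSO libraries (25.2-fold lower, log2 change -4.65, SE 0.46, edgeR adjusted p = 1.61e-07). Its natural antagonist Il1rn had 55.4, 64.9 and 45.5 CPM with BafA1 and 13.1, 12.5 and 6.65 CPM with DMSO (5.13-fold), and Acod1, which makes itaconate, had 70.8, 58.1 and 43.0 CPM with BafA1 and 6.41, 8.57 and 7.98 CPM with DMSO (7.65-fold). The neutrophil chemokine Cxcl2 rose 3.46-fold. The inflammasome sensor Nlrp3 (-0.93) and the NF-κB cofactor Nfkbiz (-1.10) fell, and Tnf (0.51), Nfkbia (0.18) and Ccl4 (-0.18) were not called.

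Type I interferon genes were scarce, with 14 of 23 passing the count filter, and 8 of the 14 were called lower and 1 higher (median log2 change -1.06). Ifitm3, which blocks viral entry, had 15.4, 11.2 and 22.4 CPM in BafA1 libraries and 59.9, 53.7 and 46.6 CPM in DMSO libraries, without overlap (log2 change -1.69, edgeR adjusted p = 0.000173). Irf7 (-1.89) was called, but lost its call without any 1 of 4 libraries (DMSO replicate 2 or any BafA1 replicate), and its change without DMSO replicate 2 was -1.27 (edgeR adjusted p = 0.19). Bst2 was the member called higher (1.03), except without DMSO replicate 3. Of 14 antigen presentation genes tested, 4 were called higher and 4 lower (28.6% each), against 17.9% and 21.7% of all genes. The number higher was 7 with the replicate block, and 2 without BafA1 replicate 1 or with library totals alone. The number lower was 2 without BafA1 replicate 2. The invariant chain gene Cd74 had 4.11, 6.01 and 2.42 CPM with BafA1 and 28.5, 30.4 and 14.2 CPM with DMSO, whereas the class II gene H2-Ab1 had 13.9, 14.8 and 10.6 CPM with BafA1 and 1.28, 2.34 and 1.77 CPM with DMSO. Genes of the H2 complex resemble each other, so the counts of single members are uncertain.

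Galectins and genes of damaged-membrane repair were called higher in 6 of 16 cases and lower in 1, or 2 with the replicate block. Beside Lgals3, Lgals1 had 246, 219.6 and 333 CPM in BafA1 libraries and 146, 134 and 160.1 CPM in DMSO libraries (1.81-fold), a call lost with library totals alone, and the annexin Anxa7 rose 1.63-fold. Lgals9 was called lower, with overlapping groups at 22.3, 11.2 and 12.4 CPM with BafA1 and 35.9, 42.8 and 21.7 CPM with DMSO, and Lgals8 was not called (0.28). Among 13 metalloproteinases and inhibitors, 4 were called higher (30.8%, against 17.9% of all genes) and 2 lower (15.4%, against 21.7%). With the replicate block, 4 were called lower. Mmp12 stood far above the rest of its list: the collagenase Mmp13 had 7.70, 8.42 and 6.67 CPM with BafA1 and 2.56, 0 and 2.22 CPM with DMSO, Adamts1 rose 2.10-fold, and the sheddase Adam10 fell, with a log2 change of -0.59. Mmp14 (-0.09), Timp1 (0.37) and Timp2 (-0.25) were not called.

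Cell cycle genes were called lower in 24 of 35 cases and higher in 2 (median log2 change -1.62). The mitotic spindle gene Prc1 had 4.62, 3.61 and 3.33 CPM in BafA1 libraries and 27.2, 35.0 and 55.9 CPM in DMSO libraries (9.99-fold lower, edgeR adjusted p = 4.22e-05). The cyclin Ccna2 had 3.85, 0.802 and 0.909 CPM with BafA1 and 13.8, 10.9 and 23.1 CPM with DMSO, and the spindle motor Kif11 had 1.54, 0 and 0.606 CPM with BafA1 and 6.41, 2.34 and 14.6 CPM with DMSO. The highest BafA1 value of these 3 genes was 4.62 CPM. Aurkb was called as well, on 3 counts in all BafA1 libraries. Top2a and Mki67 fell with log2 changes of -2.40 and -1.93, while 5 of the 6 replication licensing genes in the list (Mcm2, Mcm3, Mcm4, Mcm6 and Mcm7) were not called (Mcm7 was with the replicate block, edgeR adjusted p = 0.0465) and Mcm5 fell (log2 change -1.09). Pcna (0.74) and Ung (1.33) were called higher, and 1 of these calls was lost without DMSO replicate 1, DMSO replicate 3, BafA1 replicate 1 or BafA1 replicate 3.

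Of 19 p53 targets, 5 were called higher (26.3%, against 17.9% of all genes) and 3 lower (15.8%, against 21.7%). Without BafA1 replicate 3, 5 were called lower. Gadd45a, a stress-induced growth arrest gene, had 53.9, 57.3 and 65.4 CPM in BafA1 libraries and 3.52, 4.67 and 12.4 CPM in DMSO libraries (8.5-fold), and Mdm2, the ubiquitin ligase of p53, rose 3.55-fold. Cdkn1a (0.48) was not called, but it was called higher with the replicate block (edgeR adjusted p = 3.14e-05). Immediate early factors, 20 in all, were called higher in 5 cases (25%, against 17.9% of all genes) and lower in 6 (30%, against 21.7%). Nr4a1, an orphan nuclear receptor, had 1.03, 1.20 and 2.73 CPM with BafA1 and 21.1, 16.4 and 23.5 CPM with DMSO, and Fos had 12.3, 3.61 and 12.7 CPM with BafA1 and 72.4, 31.1 and 59.0 CPM with DMSO. Nr4a2, Egr1, Egr3 and Ier2 also fell, Egr3 with 3 counts in all BafA1 libraries, whereas Jun (1.5), Jund (1.40), Klf6, Maff and Mafk rose.

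Genes of the ribosome and of mitochondrial respiration moved little. Of 51 cytosolic ribosomal protein genes, 7 were called higher and 2 lower, with a median log2 change of -0.01, and Rpl10a, the lower gene with the largest change, had 642, 682 and 707 CPM in BafA1 libraries and 936, 1613 and 1140 CPM in DMSO libraries. The number lower was 11 with library totals alone, 7 with upper quartile scaling, 6 with the replicate block and 4 without DMSO replicate 1, so no common direction is given. Many ribosomal protein genes have processed copies, so their counts are uncertain. Of 32 nuclear-encoded oxidative phosphorylation genes, 8 were called higher (25%, against 17.9% of all genes). They were led by cytochrome c, Cycs (1.84-fold), and the complex III subunit Uqcrq (1.75-fold). In this list 2 genes were called lower (6.25%, against 21.7%), among them Ndufa4 (-0.57). The number lower was 6 with library totals alone, and 1 without DMSO replicate 2, BafA1 replicate 1 or BafA1 replicate 2. Ndufa4 stood at -0.29 without DMSO replicate 2.

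Markers of the other cell types that a mixed glial flask can hold were mostly lower with BafA1. None of the markers listed was at 0 in all 6 libraries. Of 11 oligodendrocyte lineage markers tested, 10 were called lower (median log2 change -3.71), and their summed level was 102, 139 and 123 CPM in BafA1 libraries and 729, 695 and 837 CPM in DMSO libraries. Ptprz1, a phosphatase of progenitors, had 7.44, 14.8 and 12.1 CPM with BafA1 and 242, 177 and 214 CPM with DMSO (18.9-fold lower), and Cspg4 (NG2) was not called (0.16). Gpr17 had 3 counts in all BafA1 libraries. Of 10 astrocyte markers, 7 were called lower, with sums of 43.4, 43.3 and 72.1 CPM in BafA1 libraries and 185, 184 and 295 CPM in DMSO libraries; the glutamate transporter Slc1a2 had 1.80, 2.0 and 6.06 CPM with BafA1 and 42.3, 39.7 and 39.0 CPM with DMSO. Gja1 (0.36), Clu (-0.51) and Aqp4 (-1.81) were not called, although Aqp4 was called lower with the replicate block (edgeR adjusted p = 9.1e-05). Of 3 neuron markers, Map2 and Tubb3 fell, Map2 to 10.0, 15.6 and 15.4 CPM in BafA1 libraries, against 113, 172 and 159.7 CPM in DMSO libraries. Stmn2 was not called and overlapped, at 2.82, 1.60 and 4.24 CPM with BafA1 and 3.52, 2.34 and 5.76 CPM with DMSO. Map2 made up most of the sum of the 3 in DMSO libraries (153, 213 and 192 CPM). Rbfox3, Snap25 and Syt1, which define neurons, were too scarce to test.

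The border macrophage markers Mrc1 and Pf4 fell 5.65-fold and 3.25-fold while Ms4a7 was not called (-0.25), and the sum of the 3 was 638, 412 and 416 CPM in BafA1 libraries and 623, 720 and 632 CPM in DMSO libraries. Lyve1, Cd163, F13a1 and Cbr2 did not pass the filter. Of 6 fibroblast and vascular markers, Pecam1 was called lower (13.8-fold), and the sums overlapped, at 41.1, 26.5 and 102 CPM in BafA1 libraries and 75.6, 31.2 and 129 CPM in DMSO libraries. Col1a2 was not called (-0.66) but was called lower with the replicate block, at -0.86 and an edgeR adjusted p of 0.0115, and 3 of the 6 were called lower in that fit. Acta2 was not called, at a log2 change of 0.01. The oligodendrocyte and astrocyte sums, which contain Pdgfra and Olig1 and Aldoc, were lower beside the falls of Cntn1, Cspg5, Chl1, Nxph1 and Nell2, which are in neither sum, and their part in those falls was not tested.

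**Figure D4:**
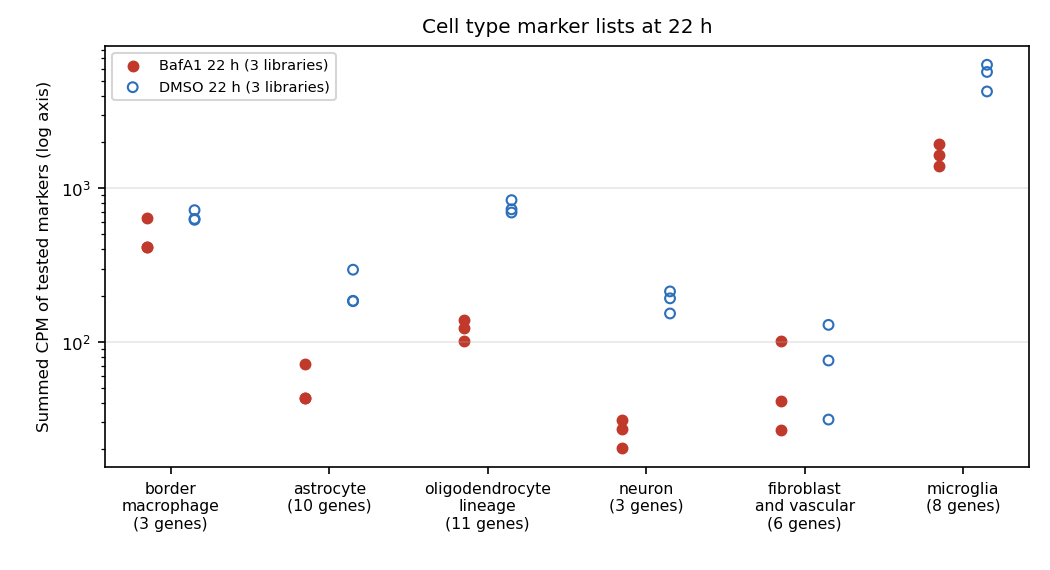
Points are the summed CPM of the tested markers of 6 cell types in single libraries on a log axis, with BafA1 filled red and left of DMSO in open blue, and the number of genes summed in brackets. The BafA1 sums lie below all DMSO sums for astrocyte, oligodendrocyte lineage, neuron and microglia markers (1402 to 1931 CPM for microglia, against 4267 to 6367 CPM), and overlap for fibroblast and vascular and for border macrophage markers.

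The effect of BafA1 at 22 h was set against that at 14 h. Of the 5009 genes called at 22 h, 2488 were also called at 14 h with the same sign, 6 with the opposite sign and 2515 were not called at 14 h, where 12% of genes were called in each direction. The difference between the effects, tested as an interaction in the same fit with separate DMSO libraries at each time, was called for 255 genes (2.02%), 54 with a higher effect at 22 h (0.427%) and 201 with a lower one (1.59%). Higher and lower refer here to the signed log2 change, so a lower effect can be a larger fall. With the replicate block the number was 803, of which 239 were higher and 564 lower. Without DMSO 14 h replicate 1 it was 124, without BafA1 22 h replicate 2 it was 137, without BafA1 14 h replicate 2 it was 160 and without BafA1 14 h replicate 3 it was 166.

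The median log2 change of the homeostatic microglia genes was -1.53 at 22 h and -0.84 at 14 h. A lower effect at 22 h was called for 8 of these 30 genes, against 1.59% of all genes. With the replicate block 14 of the 30 were called, and the number was 5 when BafA1 replicate 1 or BafA1 replicate 2 of 14 h, or BafA1 replicate 2 or BafA1 replicate 3 of 22 h, was left out. Among genes with a standard symbol called for the difference at 3 or more log2 CPM on average, Il1b had the largest negative one. Its BafA1 values at 14 h were 195, 97.7 and 128 CPM, against DMSO values of 566, 497 and 337 CPM, a log2 change of -1.73. The difference of the effect at 22 h from that at 14 h was -2.92 (SE 0.58, edgeR adjusted p = 0.0112). Nfasc, an adhesion protein of axons and glia, had a log2 change of -3.86 at 22 h and -1.03 at 14 h. Grm5 had -5.92 at 22 h and -3.32 at 14 h, and Marchf1, a ubiquitin ligase for class II molecules, had -3.38 at 22 h and -0.91 at 14 h. Cx3cr1 and Mef2c had differences of -1.46 and -1.80 between the effects at 22 h and 14 h (edgeR adjusted p = 0.00455 and 0.0163), the call for Mef2c being lost without DMSO 14 h replicate 1 (0.0544). Actb had log2 changes of -1.38 at 22 h and -0.66 at 14 h, and its difference was called (edgeR adjusted p = 0.0376) but lost its call in 11 of the 12 fits that left out 1 library.

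The median log2 change of the cholesterol synthesis list was -0.24 at 22 h and 0.43 at 14 h, and Hmgcs1, Hsd17b7, Cyp51 and Idi1 were among the 5 of 24 members called for a lower effect at 22 h, against 1.59% of all genes. That number was 10 with the replicate block. Leaving out a single library gave 0 for DMSO replicate 1 of 14 h and BafA1 replicate 2 of 22 h, and 1 for BafA1 replicate 3 of 14 h and DMSO replicate 3 of 22 h. It gave 2 for DMSO replicate 3 and BafA1 replicate 2 of 14 h and BafA1 replicate 1 of 22 h, and 3 for BafA1 replicate 1 of 14 h and DMSO replicate 2 of 22 h. Idi1, an isomerase of the mevalonate pathway, had a log2 change of -0.34 at 22 h and 1.26 at 14 h, and Hmgcs1 had -0.57 at 22 h and 0.14 at 14 h. Elovl6 and Scd2 of fatty acid synthesis had called differences of -2.04 and -1.11. The first lost its call in 8 of the 12 fits that left out 1 library, and the second without DMSO 14 h replicate 1, BafA1 14 h replicate 3 or BafA1 22 h replicate 2 (edgeR adjusted p of 0.0555 to 0.0665). Among endoplasmic reticulum chaperones the effect was higher at 22 h for Hspa5, Dnajb9, Selenos and Hspa13, with 9 of 24 called under the replicate block and 2 without DMSO 14 h replicate 1, BafA1 14 h replicate 3, BafA1 22 h replicate 1 or BafA1 22 h replicate 2, and the list's median was 1.26 at 22 h and 0.63 at 14 h. Hspa5 had a log2 change of 2.22 at 22 h and 1.24 at 14 h (difference 0.98, SE 0.16, edgeR adjusted p = 0.00127).

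Among called genes of the same minimum level with a standard symbol, the largest positive differences were those of Rn7sk, Slc43a3, Acot2 and Eef1akmt4. Slc43a3, a purine nucleobase transporter, had 28.2, 26.9 and 21.2 CPM in BafA1 libraries and 1.92, 3.89 and 2.22 CPM in DMSO libraries at 22 h, a log2 change of 3.33, and one of 0.68 at 14 h. Acot2, a mitochondrial thioesterase, had changes of 1.81 at 22 h and -0.07 at 14 h, and Eef1akmt4 had 2.15 at 22 h and 0.41 at 14 h. Rn7sk, the small nuclear RNA 7SK, was not called at 22 h, at 194, 215 and 217 CPM with BafA1 and 251, 112 and 100.2 CPM with DMSO, and its difference was 3.56. At 14 h it stood at 28.2, 31.5 and 38.0 CPM with BafA1 and 451, 209.9 and 213 CPM with DMSO. Rn7sk has many near-identical copies in the genome and is not polyadenylated, so its counts in 3′ tag libraries are uncertain.

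**Figure D5:**
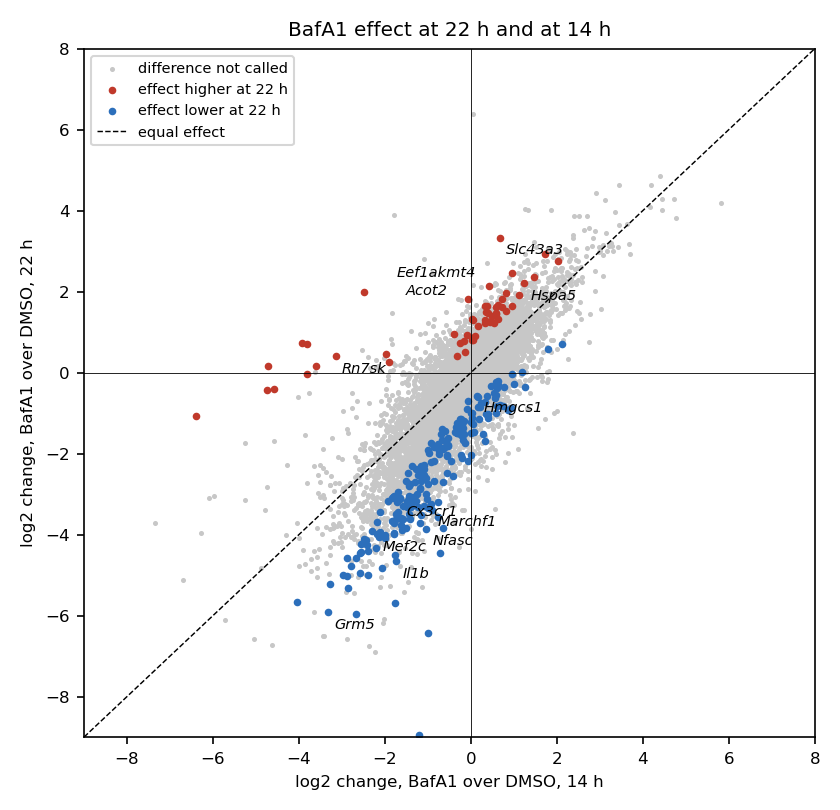
Each point is 1 of the 12648 genes tested, with the log2 change (BafA1 over DMSO) at 14 h on the x axis and that at 22 h on the y axis, and the dashed line marks equal effects. Red points (54) had a higher and blue points (201) a lower signed effect at 22 h. Il1b lies at -4.65 at 22 h and -1.73 at 14 h, and Cx3cr1 at -3.12 at 22 h and -1.66 at 14 h.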

How the data were processed

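Libraries were made with the QuantSeq 3′ mRNA kit (FWD) with unique molecular identifiers and read as single ends, per the labels. Salmon and GRCm39 appear in the submitters' processing notes; which annotation release and deduplication were used is not given in the sources used. Values deposited by the authors are estimated counts, and 37.1% of those above 0 were fractional. The authors also deposited log2 CPM, which log2 CPM recomputed with TMM and a prior count of 2 matched within 0.0012; it served only for this check. Here the estimated counts were rounded and filtered with edgeR 4.0.16 filterByExpr over 8 groups (R 4.3.3), which left 12648 of 56980 genes; genes left out held 0.699% of the counts. 293 gene IDs shared a symbol with another. All 24 libraries were fitted together, 1 coefficient per treatment and time, with TMM scaling and robust quasi-likelihood tests (16 residual degrees of freedom), two-sided, Benjamini-Hochberg adjusted over all genes tested. limma 3.58.1 and DESeq2 1.42.0 were alternatives.

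Replicate numbers were taken as pairing the samples only in the fits with the replicate block, which add a term for the number. The main fit left this pairing out, and it gave every SE and p-value here that is not credited to another fit. At 22 h the replicate block gave 5961 calls, against 5009 in the main fit. The correlations of deviations from the group means were 0.145, 0.167 and 0.232 for the same-numbered pairs at 22 h, and all same-numbered pairs at the other times were also above 0.1. Pairs of different numbers at 22 h had correlations of -0.195 to 0.042. The labels do not say what a number shares.

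Genes were named if called, at 3 or more log2 CPM on average and without overlap (12 largest rises and falls, 6 largest gains and losses in CPM), the 4 called members of each list with the largest change, and the 4 largest positive and negative differences of effect. Outside the lists, these rankings took only standard symbols, with no Gm number, Rik, clone or accession name. Members and gene lists were chosen with earlier results of these data known. In data simulated for the 22 h comparison on 12648 genes, 36% of 100 genes changed 2-fold and 78% of 100 genes changed 4-fold were called, and 6.56% of the calls were unchanged genes. Only those genes were changed in the simulation, whereas 39.6% of genes were called in the data. The adjusted p threshold was therefore stricter there, so these shares need not hold for the data. Depth limits precision for genes of a few counts: 3 counts equal 0.716 to 2.25 CPM in these 6 libraries. Promoter windows are from RefSeq (GRCm38.p6), matched by symbol, and were used for sequence only. Some genes that fell under the naming rule are not reported here.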

Additional observations from a re-analysis of the deposited data

Results flagged for a closer look

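Of the 160 genes of the naming rule, 32 had an effect of BafA1 at 22 h that differed from that at 14 h by the test of the difference itself (edgeR, adjusted over all genes), 23 lower and 9 higher, and 16 of the 32 kept that call in every fit that left out 1 of the 12 libraries. In the genes named for the size of the difference, the effect at 22 h was the lower one, with a log2 difference from 14 h of -2.92 for Il1b (SE 0.58), -2.82 for Nfasc (SE 0.54), -2.59 for Grm5 (SE 0.51) and -2.47 for Marchf1 (SE 0.44). It was the higher one, with a difference of 3.56 for Rn7sk (SE 0.58), 2.65 for Slc43a3 (SE 0.61), 1.88 for Acot2 (SE 0.43) and 1.73 for Eef1akmt4 (SE 0.42). For Rn7sk the values at 14 h were 28.2, 31.5 and 38.0 CPM with BafA1 and 451, 209.9 and 213 CPM with DMSO. The call for Slc43a3 was lost without DMSO 14 h replicate 1, DMSO 14 h replicate 2 or DMSO 22 h replicate 1 (edgeR adjusted p of 0.0519 to 0.06), and that for Acot2 without DMSO 14 h replicate 3, BafA1 14 h replicate 2, DMSO 22 h replicate 1 or BafA1 22 h replicate 2 (0.0511 to 0.0712). The call for Eef1akmt4 was lost in 8 of the 12 fits that left out 1 library (0.0509 to 0.089).

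In the others, the difference was -2.44 for Cntn1, -2.38 for Chl1, -2.13 for Atp1b2, -2.04 for Elovl6, -2.03 for Klhl13, -1.98 for Nxph1, -1.97 for Nr4a1, -1.94 for Olig1 and -1.92 for Slc1a2. It was -1.88 for Gpr34, -1.82 for Tmem119, -1.80 for Mef2c, -1.75 for Map2, -1.68 for Ptprz1, -1.62 for Pdgfra, -1.46 for Cx3cr1, -1.11 for Scd2, -1.02 for Lpl and -0.72 for Actb. A higher effect at 22 h was found for the remaining genes, with 0.69 for Psmb6, 0.82 for Hspe1, 0.87 for Fabp5, 0.98 for Hspa5 and 1.49 for Dnajb9. Among these the call was lost in 11 of the 12 such fits for Actb and for Tmem119. It was lost in 9 for Psmb6, 8 for Elovl6, 7 for Fabp5, 5 for Nr4a1 and 4 for Gpr34. For Atp1b2 and Scd2 it was lost in 3, for Pdgfra in 2, and for Mef2c, Nxph1 and Olig1 in 1. The others of this paragraph kept it in all 12.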

How the results depend on the processing

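Over the alternatives and leaving out each library of 22 h, the number of calls at 22 h lay between 4148 (without BafA1 22 h replicate 1) and 5961 (replicate block), except in the test against a 1.5-fold change, which left 2586 genes, 891 higher and 1695 lower. With 1 library left out, 4148 to 4980 genes were called, 1881 to 2320 higher and 2267 to 2660 lower. All 5009 genes were also called with the replicate block, and among the 160 genes of the naming rule that paired fit changed no call other than that of Col1a2. The number of genes with a different effect at 22 h and 14 h depended on the fit: 803 with the replicate block (239 higher, 564 lower) and 428 with DESeq2 (121 higher, 307 lower), against 255. Leaving out 1 of 12 libraries gave 124 to 247 genes, 23 to 78 higher and 101 to 189 lower; the cause was not tested. The change of Acta2, not called, turned to -0.069 with upper quartile scaling, -0.17 with library totals, -0.024 with the stricter filter, -0.34 without DMSO 22 h replicate 2 and -0.45 without BafA1 22 h replicate 3 (range without 1 library -0.45 to 0.49). That of Col1a2 turned to 0.0197 without DMSO 22 h replicate 3 (range -2.12 to 0.0197). Of 2870 recomputed log2 changes of 160 named genes, 2818 kept direction and call, 44 lost the call and 2 gained it. Most of these genes were named for large changes in the same libraries, which largely fixed that count in advance. Of all 5009 calls, 4035 were also made without BafA1 22 h replicate 1 and 4085 without DMSO 22 h replicate 3. With only the 6 libraries of 22 h, 4217 were also made, and with library totals alone 4289. The Grm5 difference was not called by limma-voom (adjusted p = 0.11). Upper quartile scaling shifted the median of all genes to -0.14, with 38.6% of calls higher. DMSO libraries were shallower, and 4361 genes were called after thinning all 6 to equal totals. With 3 samples a group, 36% of 2-fold changes were called in the simulation, which changed far fewer genes than were called here.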
